A study of Mus musculus with 42 samples.

Results

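Tnfrsf9, Tnfrsf4, Tnfrsf18, Tnfrsf1b and Cd27 encode 5 receptors of the tumour necrosis factor (TNF) receptor family, known at the cell surface as 4-1BB, OX40, GITR, TNFR2 and CD27. These genes were taken by name, and they were 5 of the 54353 genes shared by the bulk count tables and 5 of the 35237 genes of a joined single-cell table. 4-1BB was also one of the antibodies used to sort some of the cells, so Tnfrsf9 is described without a test wherever that sort set the groups. The libraries came from tissue-resident natural killer (trNK) cells of the mouse uterus, the CD49a-bearing innate lymphocytes of the lining that becomes the decidua in pregnancy. There were 34 bulk RNA libraries in 17 groups of 2, spread over 4 experiments, and 1 pool of single cells.

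All mice were adult C57BL/6 or labelled wild type (WT), with no transgene or deletion. The gestation experiment held CD45+NK1.1+NKp46+CD49a+CXCR6- cells of virgin uterus and of gestational days gd6.5 and gd8.5. The subset experiment divided the same gate at gd8.5 by CD55 and 4-1BB into low, intermediate and high cells (CB_low, CB_int and CB_hi), which the study calls trNK-V, trNK-D and trNK-T. The inhibitor culture held live NK1.1+ cells kept for 3 days with no IL-21, with IL-21 at 20 ng/ml, or with IL-21 and the STAT3 inhibitor Stattic, whose dose is left out because the label and the study's text give different units. The time course held cultured WT trNK cells at 0, 6, 24 and 72 h in IL-15, each with and without IL-21 at 20 ng/ml. The study's methods name IL-15 in the medium of its trNK cultures, and the labels of the inhibitor culture do not mention it. Those labels give the 3 days for the groups with IL-21 only, while the study describes 72 h with or without IL-21. Cells of the inhibitor culture called untreated below had neither IL-21 nor Stattic. The study describes the cultured cells as trNK-V of gd6.5 uterus, that is, cells gated for low 4-1BB, while its methods name trNK cells of virgin or gd6.5 mice. The labels do not say whether the 2 libraries of a group came from separate animals or cultures, and the p-values below then measure only the spread between those libraries. With 2 libraries per group, groups often fail to overlap by chance. The share of all genes without overlap was not counted, so overlap is given below as a description only.

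Receptors of this family carry no enzyme. A trimeric ligand clusters them, and their tails recruit TRAF adaptors that switch on NF-kB and kinase pathways favouring survival, division and cytokine release. 4-1BB, OX40 and GITR are induced costimulators best known from activated T cells and NK cells, TNFR2 is the receptor of TNF that lacks a death domain, and CD27 is carried by less mature NK cells and is lost as they mature. IL-21 signals through STAT3, whose dimers bind the palindrome TTCNNNGAA.

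Tnfrsf9 (ENSMUSG00000028965) lies at chr4:150914562-150946102 on the plus strand of GRCm38 (mm10). On the same arm are Tnfrsf4 (ENSMUSG00000029075, chr4:156013843-156016612, plus), Tnfrsf18 (ENSMUSG00000041954, chr4:156026164-156028895, plus) and Tnfrsf1b (ENSMUSG00000028599, chr4:145213463-145246870, minus). Cd27 (ENSMUSG00000030336) lies at chr6:125232622-125237010 on the minus strand. Antisense genes overlap 3 of them, and whether the counting used strand is not given in the sources used here. Their levels stayed below those of the receptors in every library, with Camta1, opposite Tnfrsf9, at 0.670 to 3.34 RPKM (reads per kilobase of gene, scaled to library size), Gm16008, opposite Tnfrsf18, at 0 to 4.12 RPKM and Vamp1, opposite Cd27, at 0 to 0.923 RPKM.

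The windows of up to 250 bases before the RefSeq starts of the genes are shown because the cultures in which the receptors were measured were treated with IL-21 and with a STAT3 inhibitor. There are 6 windows, since Tnfrsf9 has 2 starts. The first sequence ends where an annotated exon of Tnfrsf9 begins, and all are written 5′ to 3′ on the strand of the gene in GRCm38.p6. Capitals mark a match to TTCNNNGAA in the first, the second and the last sequence and a match to NF-kB in the third, where GGGGATTTCC fits the form GGG, 2 free bases and TTTCC, and the overlapping GGGATTTCCC the form GGG, 2 free bases and TTCCC.
Tnfrsf9, chr4:150927749-150927917, plus: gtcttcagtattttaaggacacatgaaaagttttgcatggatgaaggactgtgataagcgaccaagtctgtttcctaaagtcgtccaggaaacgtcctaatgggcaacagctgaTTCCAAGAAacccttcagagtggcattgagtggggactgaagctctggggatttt
Tnfrsf1b, chr4:145246871-145247120, minus: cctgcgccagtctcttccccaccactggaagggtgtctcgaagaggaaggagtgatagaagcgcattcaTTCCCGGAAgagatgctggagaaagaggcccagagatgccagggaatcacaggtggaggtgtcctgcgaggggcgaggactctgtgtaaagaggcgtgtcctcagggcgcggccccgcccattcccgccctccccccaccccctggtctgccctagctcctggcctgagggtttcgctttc
Tnfrsf9, chr4:150927946-150927975, plus: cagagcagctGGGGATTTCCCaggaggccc
Tnfrsf18, chr4:156026213-156026242, plus: tgctctacacTTCACAGAAggcctttacaa

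The Tnfrsf9 stretches belong to its second RefSeq start, inside the span of the gene and of antisense Camta1. There the STAT match lay 136 bases before the start, the NF-kB matches 43 and 42 bases before it, and an AP-1 match (TGACTCA, read as TGAGTCA) 15 bases before it. The STAT match lay 99 bases before the RefSeq start of Tnfrsf18 and 181 bases before that of Tnfrsf1b. The Tnfrsf18 match is nonetheless inside the span given above for that gene, and exons of Tnfrsf18 and of antisense Gm16008 overlap its window. Neither strand of the windows of Tnfrsf4, Cd27 and the first start of Tnfrsf9 held any of these letters. Over 32851 such windows of all genes, 7.02% held the STAT form, 1.41% and 1.53% the NF-kB forms and 4.46% the AP-1 form, on either strand. The motifs were picked with the expression results known, and a match is a description of the sequence only.

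Tnfrsf9 was the most abundant of the 5 receptors per length in 31 of the 34 libraries and Tnfrsf18 in the other 3, which were virgin replicate 1, trNK-V replicate 2 and 72 h replicate 2. Tnfrsf9 made up 31.3% and 79.1% of the summed RPKM of the receptors in the virgin libraries, 79.3% to 89.9% in those of gestation, and from 35.8% in trNK-V to 95.3% in trNK-T. Tnfrsf4, the OX40 gene, was at the other end, between 0 and 7.94 RPKM. Its highest library was gd8.5 replicate 2 with 178 reads, next to 1.18 RPKM in the other gd8.5 library, and it did not reach the level needed for a test in any experiment.

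**Figure D1:**
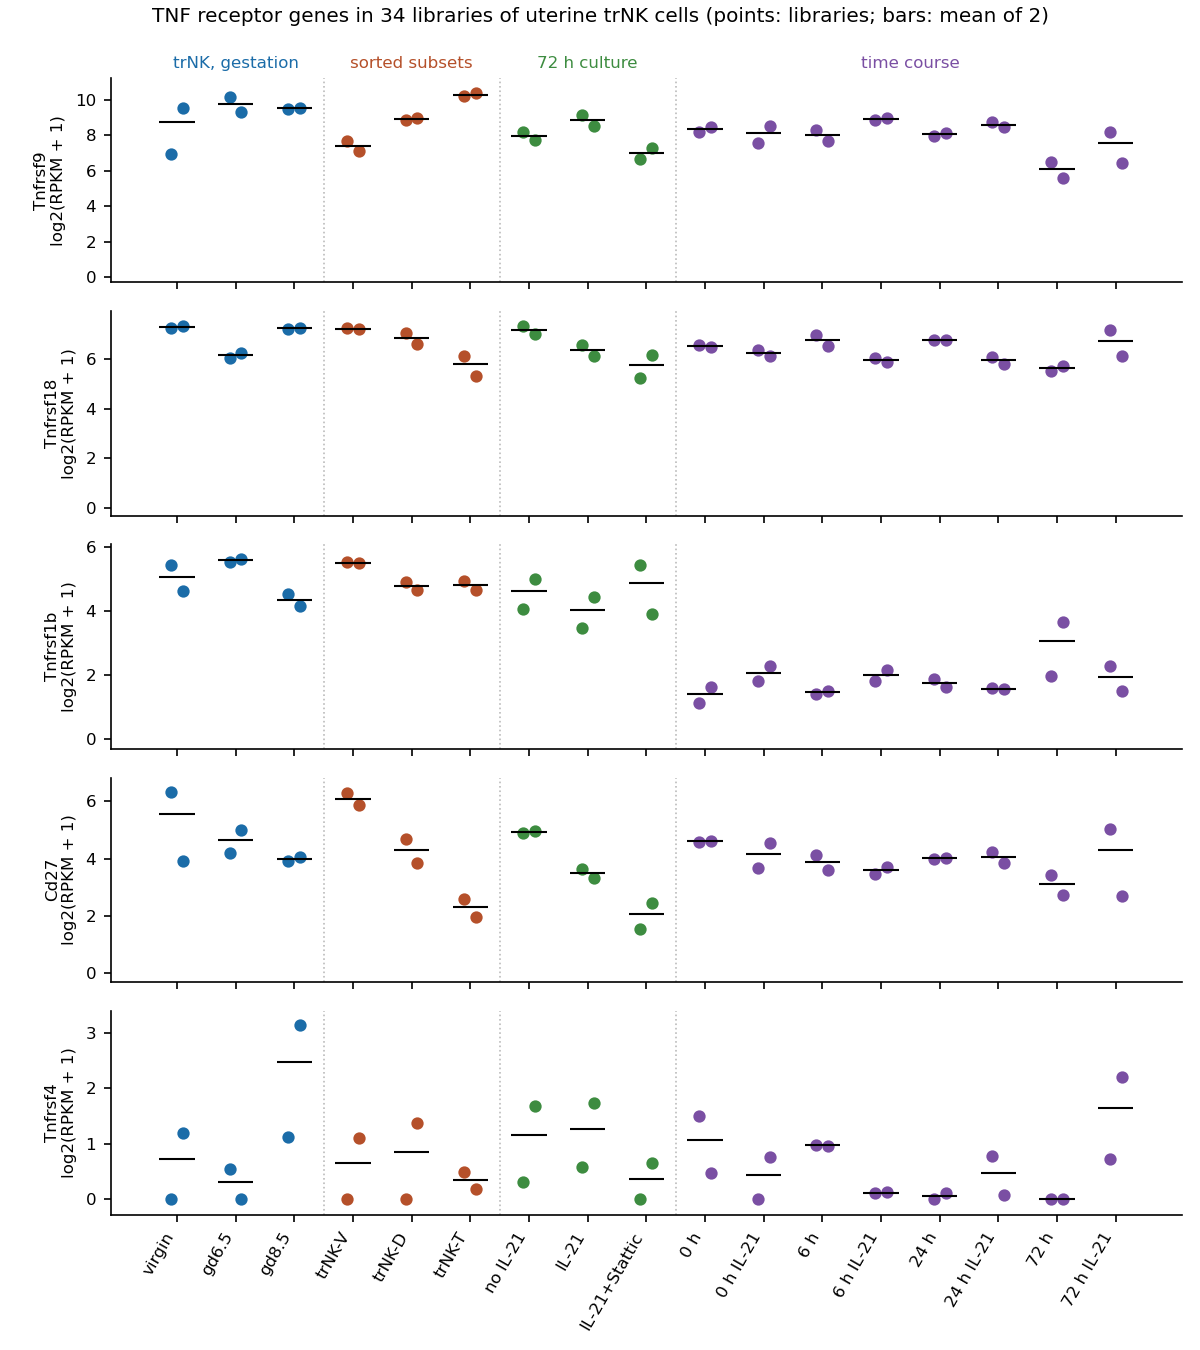
Levels of the 5 receptor genes as log2(RPKM + 1) in the 17 bulk groups, one panel per gene. Points are libraries, horizontal bars the mean RPKM of the 2, and colours the 4 experiments. Tnfrsf9 runs from 48.1 RPKM in a 72 h culture to 1357 RPKM in trNK-T, where the gate chose cells high in 4-1BB, and Tnfrsf4 stays near the bottom throughout.

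The gestation experiment asked how trNK cells of the virgin uterus differ from those after implantation. Tnfrsf18 fell at gd6.5, the single receptor of 4 tested that did so at an adjusted p below 0.05 and more than 2-fold. It was measured at 149 and 159.5 RPKM in virgin cells, 64.9 and 74.5 RPKM at gd6.5, and 147 and 151 RPKM at gd8.5. The gd6.5 libraries lay below all others, while those of virgin and gd8.5 overlapped. The log2 fold change from virgin to gd6.5 was -1.23 (SE 0.15, adjusted p = 0.0255 by edgeR's quasi-likelihood test), or 2.35-fold lower, against 6.17% of 4504 genes called. From gd6.5 to gd8.5 the difference was 1.12 on the log2 scale (SE 0.15, adjusted p = 0.0919 by edgeR). The fall at gd6.5 was lost without either gd6.5 library, without either gd8.5 library, when only the groups compared were fitted, with a replicate block, and under edgeR's own count filter, which keeps more genes.

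Tnfrsf9 did not pass the test in the whole trNK gate. It was read at 123 and 751 RPKM in the virgin libraries, 1137 and 626 RPKM at gd6.5, and 709 and 755 RPKM at gd8.5. The virgin libraries lay far apart, with replicate 2 at the level of pregnancy, so all 3 groups overlapped. The change from virgin to gd6.5 was 0.93 (log2, SE 0.75, adjusted p = 0.424 by edgeR) and 2.82 when virgin replicate 2 was left out, which made Tnfrsf9 and Cd27 called.
Cd27 had 79.1 and 14.1 RPKM in virgin cells, 17.5 and 31.1 RPKM at gd6.5, and 14.3 and 15.5 RPKM at gd8.5. The same virgin library 2 was thus low in Cd27 and high in Tnfrsf9. The log2 difference of Cd27 between gd8.5 and virgin was -1.71 (SE 0.74, adjusted p = 0.366 by edgeR), -2.42 without virgin replicate 2 and 0.025 without replicate 1.

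For Tnfrsf1b, the TNFR2 gene, the levels were 42.0 and 23.6 RPKM in virgin cells, 45.1 and 48.8 RPKM at gd6.5, and 22.1 and 16.9 RPKM at gd8.5. Both gd8.5 libraries were below those of the other days, and the difference from gd6.5 was -1.25 (log2, SE 0.30, adjusted p = 0.103 by edgeR). Of the 4 receptors tested, 0 were called between gd8.5 and virgin (0.422% of all genes) or between gd8.5 and gd6.5 (0% of all genes by edgeR, where 1071 genes had an unadjusted p below 0.05, DESeq2 called 221 and limma 0). Between gd8.5 and gd6.5, Tnfrsf18 and Tnfrsf1b were called by DESeq2, with no gene filter, and with only the groups compared. The median log2 change of the 4 was -0.30 from virgin to gd6.5 and -0.46 from virgin to gd8.5, beside -0.02 and -0.0025 over all genes. In bulk RNA, fewer cells carrying a receptor and less RNA per cell cannot be told apart. Other cell markers also varied among these libraries: the erythroid list summed to 12.8 to 223.5 RPKM in virgin cells and up to 844 RPKM in a gd8.5 library, while Cd3e stayed at or below 0.936 RPKM and Foxp3 at 0. The T cell list as a whole summed to 468 to 599 RPKM in virgin cells, 280.4 to 421 RPKM at gd6.5 and 454 to 485 RPKM at gd8.5. The dividing list summed to 30.1 to 54.3 RPKM in virgin cells and 76.6 to 133 RPKM at gd6.5, and Ncr1, the NKp46 gene used in the sort, fell by 1.03 between them (adjusted p = 0.0288 by edgeR). Their part in these levels was not tested.

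In the subsets at gd8.5, Tnfrsf9 followed the antibody gate that defined them. It stood at 200.5 and 138 RPKM in trNK-V, 465 and 507 RPKM in trNK-D, and 1172 and 1357 RPKM in trNK-T. The 3 groups did not overlap, with trNK-D 2.87 times and trNK-T 7.48 times the mean of trNK-V. These values describe the sort and carry no test.

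Cd27 and Tnfrsf18 fell from trNK-V to trNK-T, and they were 2 of the 3 ungated receptors tested, beside 21.2% of 4683 genes called in this comparison. Cd27 measured 77.1 and 56.8 RPKM in trNK-V, 24.6 and 13.3 RPKM in trNK-D, and 4.96 and 2.90 RPKM in trNK-T. No group overlapped the next. It fell by 4.08 on the log2 scale from trNK-V to trNK-T (SE 0.42, adjusted p = 0.00257 by edgeR), a 16.9-fold lower level, and this call held in every alternative run.

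Between trNK-D and trNK-T, Cd27 fell by 2.27 (log2, SE 0.40, adjusted p = 0.0472 by edgeR), beside 1.75% of genes called. That call was lost when any single library of the 6 was left out, with limma, with only the groups compared, and under edgeR's own count filter. From trNK-V to trNK-D its difference was -1.81 (SE 0.38, adjusted p = 0.115 by edgeR), where 0 of 3 receptors and 0.32% of genes were called, with 939 genes at an unadjusted p below 0.05. DESeq2, a fit with no gene filter and a replicate block did call Cd27 there.

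Tnfrsf18 was at 148 and 145 RPKM in trNK-V, 128 and 96.7 RPKM in trNK-D, and 68.6 and 39.0 RPKM in trNK-T. The order was the same as for Cd27, with no overlap between neighbours and a smaller span. Its fall from trNK-V to trNK-T was 1.44 on the log2 scale (fell by 1.44, SE 0.28, adjusted p = 0.0128 by edgeR), 2.72-fold, and was lost without trNK-T replicate 2 or trNK-V replicate 2. Tnfrsf1b had 44.9 and 44.0 RPKM in trNK-V, 29.2 and 24.4 RPKM in trNK-D, and 29.8 and 24.6 RPKM in trNK-T. Its trNK-D and trNK-T libraries overlapped and both lay below trNK-V. The log2 difference of trNK-T from trNK-V was -0.71 (SE 0.17, adjusted p = 0.0231 by edgeR), a 1.63-fold difference that stayed under the 2-fold limit. Beside the 3 ungated receptors, whose median was -1.44 between trNK-T and trNK-V, the median over all genes was -0.01.

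Genes listed as markers of other cells moved along with the same subsets. The macrophage list summed to 48.4 to 294 RPKM in trNK-V, 261.5 to 352 RPKM in trNK-D and 14.9 to 18.2 RPKM in trNK-T, mostly through Lyz2, while the defining C1qa stayed at or below 4.03 RPKM. The dendritic cell list summed to 209 to 283 RPKM, 123 to 244 RPKM and 6.61 to 24.0 RPKM in the same order. It did so mostly through H2-Ab1 and Itgax, while Flt3, Xcr1 and Zbtb46 stayed at or below 2.37 RPKM. H2-Ab1 was 59.1-fold and Itgax 8.28-fold lower in trNK-T than in trNK-V. The T cell list ran from 531 to 586 RPKM in trNK-V to 237 to 381 RPKM in trNK-T, and Cd3d was 21.5-fold lower in trNK-T, while the defining Cd3e stayed at or below 1.26 RPKM. The sum of the 4 trNK markers was 1379 to 1388 RPKM in trNK-V and 644 to 799 RPKM in trNK-T, with Klrb1c 3.24-fold lower. Other lists ran upward. The regulatory T cell list went from 2.57 to 9.98 RPKM in trNK-V to 73.6 to 78.2 RPKM in trNK-T. Ctla4 was 13.8-fold higher there, while the defining Foxp3 stayed at or below 0.0121 RPKM. The epithelial list went from 6.54 to 10.3 RPKM to 53.4 to 57.98 RPKM, with Epcam 7.67-fold higher. In the single cells described below, trNK-like cluster 2 held Ctla4, Il2ra and Epcam at 2-fold against all other cells. The trNK-like cluster 8 held Cd3g, Itgax and Trdc at 2-fold, and H2-Ab1, Lyz2 and Cd3d were at 2-fold in neither. The part of these differences between the subsets in the fall of Cd27 and Tnfrsf18 was not tested.

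Among the 20 adaptors and transducers listed for this family, 15 could be tested in the subsets and 3 were called between trNK-T and trNK-V, beside 21.2% of all genes. Siva1, whose product binds the tail of CD27, rose (log2 1.16, SE 0.27, adjusted p = 0.0204 by edgeR), from a mean of 20.4 to 45.5 RPKM. Traf1, an adaptor that binds 4-1BB, fell by 1.09 (SE 0.22, adjusted p = 0.0132 by edgeR) and Rel, an NF-kB subunit, fell by 1.11 (SE 0.29, adjusted p = 0.0267 by edgeR). Rel passed the filter on low values through trNK-V alone, and its call was lost under edgeR's own count filter and with no filter. The median of the 15 was -0.85. Of 23 other TNF receptors only 1 could be tested, Tnfrsf1a, the death-domain receptor of TNF, and it fell by 1.68 (SE 0.48, adjusted p = 0.0379 by edgeR). With means of 14.4 RPKM in trNK-V and 4.48 RPKM in trNK-T, it could not have passed the filter through trNK-T. Among the surface genes fixed beside the receptors, Klrg1, an inhibitory receptor of mature NK cells, rose by 1.92 (adjusted p = 0.00176 by edgeR) and Il21r, the IL-21 receptor chain, fell by 2.31 (adjusted p = 0.00698 by edgeR).

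The inhibitor culture asked what IL-21 does to trNK cells and whether STAT3 takes part. No group received Stattic alone, so its own effect could not be separated from a block of the IL-21 response. How much of that response passes through STAT3 was therefore not tested. Tnfrsf9 was at 289 and 211 RPKM without IL-21, 569 and 374 RPKM with IL-21, and 101 and 152 RPKM with IL-21 and Stattic. The 3 groups did not overlap. The difference with IL-21 did not pass the test, with a log2 fold change of 1.11 (SE 0.37, adjusted p = 0.344 by edgeR). Stattic on top of IL-21 gave -1.80 (SE 0.38, adjusted p = 0.0506 by edgeR), just outside the limit, and DESeq2, limma and a fit with no gene filter called it. Against untreated cells the cells with both agents differed by -0.69 (SE 0.37, adjusted p = 0.316 by edgeR).

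Cd27 stepped down along the same 3 groups. It had 28.4 and 30.4 RPKM without IL-21, 11.5 and 8.92 RPKM with IL-21, and 1.95 and 4.46 RPKM with IL-21 and Stattic. No 2 groups overlapped. Cells with both agents fell by 2.91 against untreated cells (log2, SE 0.55, adjusted p = 0.0289 by edgeR), 7.51-fold, as 1 of 4 receptors tested beside 4.74% of 4158 genes. Cd27 passed the filter on low values through the untreated libraries alone, and with no filter the difference was -2.84 (adjusted p = 0.000968 by edgeR). The call was lost under edgeR's own count filter, with the replicate number as a block, and without 5 of the 6 libraries in turn. IL-21 alone gave -1.33 (SE 0.52, adjusted p = 0.476 by edgeR) and Stattic against IL-21 -1.58 (SE 0.53, adjusted p = 0.164 by edgeR), which DESeq2 called.

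Tnfrsf18 was at 158 and 126 RPKM without IL-21, 92.7 and 68.2 RPKM with it, and 36.3 and 69.2 RPKM with both agents. Cells with IL-21 lay below untreated cells and overlapped those with Stattic. The differences were -0.63 for IL-21 (SE 0.41, adjusted p = 0.757 by edgeR) and -1.14 for both agents against none (SE 0.41, adjusted p = 0.154 by edgeR). Tnfrsf1b ranged from 9.99 to 42.9 RPKM and its 3 groups overlapped, with both extremes among treated libraries. For IL-21 against none, 0 of 4 receptors were called beside 0.289% of genes (382 at an unadjusted p below 0.05), and for Stattic against IL-21 0 of 4 beside 2.96% by edgeR, where DESeq2 called 2, and limma and a fit with no gene filter 1 each. The median of the 4 was -0.54 with IL-21 and -1.04 with Stattic against IL-21, beside -0.02 and -0.03 over all genes.

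The trNK markers were also lower in the treated groups. The sum of Itga1, Ncr1, Klrb1c and Eomes was 966 to 1099 RPKM without IL-21, 313 to 367 RPKM with IL-21 and 228 to 234 RPKM with Stattic. The T cell list summed to 509 to 571 RPKM, 322 to 441 RPKM and 236 to 290 RPKM in the same order, and the B cell list to 136 to 257 RPKM, 46.4 to 120.1 RPKM and 53.8 to 65.3 RPKM. Foxp3 and C1qa were at 0 and Cd3e at or below 6.42 RPKM in the inhibitor culture. The regulatory T cell list summed to 1.04 to 2.12 RPKM, 61.8 to 66.7 RPKM and 15.1 to 32.2 RPKM in the same order, through Ctla4. Whether these differences had a part in the levels of Cd27 or Tnfrsf18 was not tested.

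**Figure D2:**
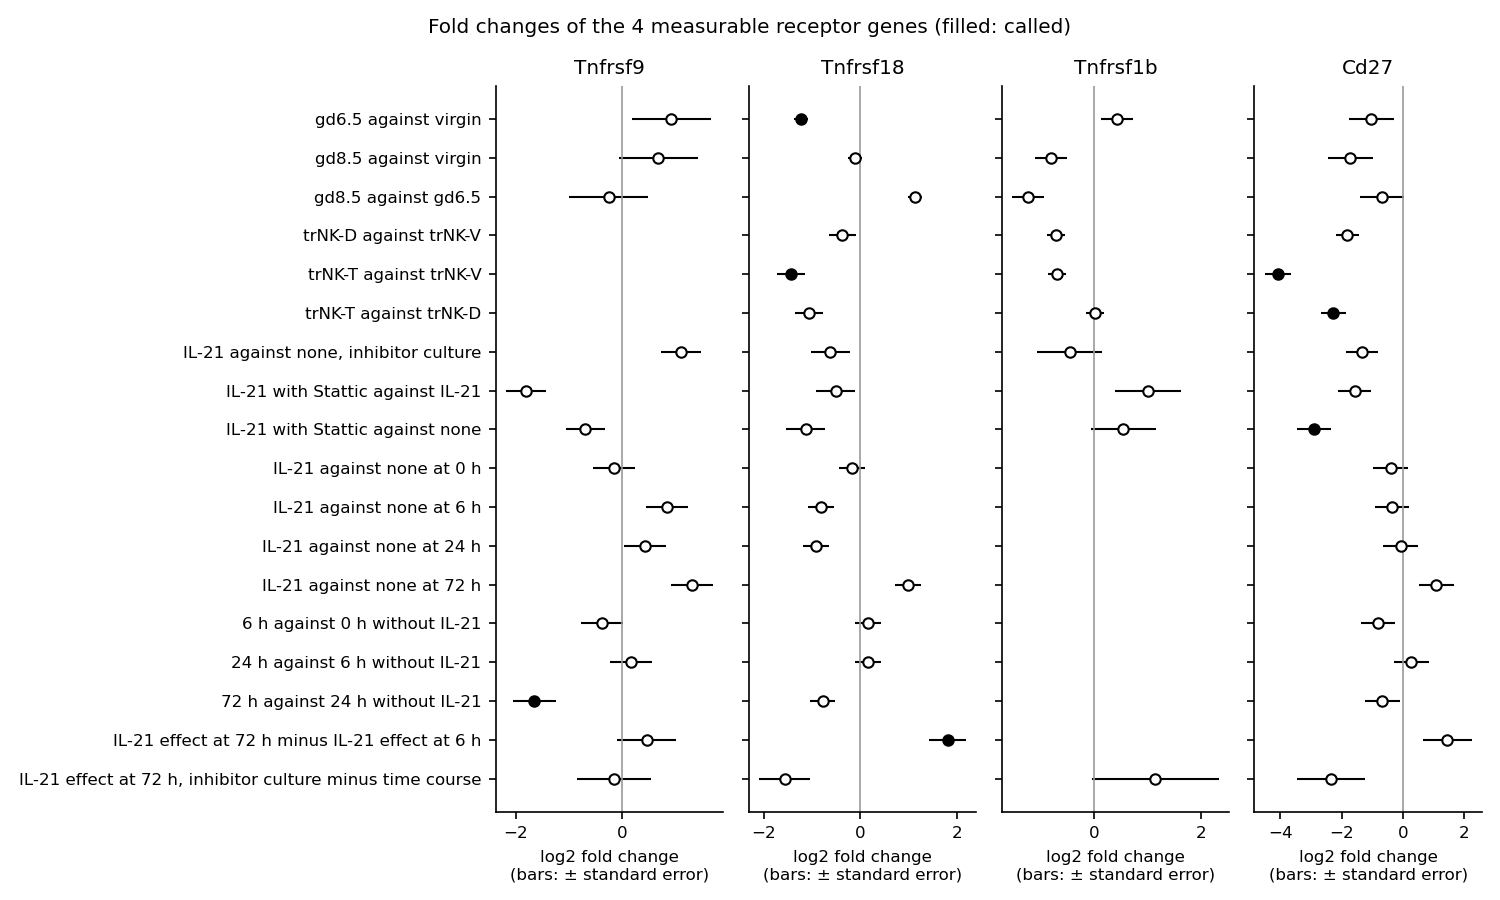
Log2 fold changes from edgeR with their standard errors for Tnfrsf9, Tnfrsf18, Tnfrsf1b and Cd27 in the 18 comparisons. Filled points passed the test (adjusted p below 0.05 and over 2-fold); Tnfrsf9 is left blank in the subsets, where the sort used 4-1BB, and Tnfrsf1b in the time course, where it was too low to test. The lowest value is Cd27 in trNK-T against trNK-V, at -4.08.

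The time course asked how the response to IL-21 unfolds, with a library kit that differed from that of the other experiments. Tnfrsf9, Tnfrsf18 and Cd27 could be tested there, while Tnfrsf1b was between 1.17 and 11.7 RPKM. Without IL-21, Tnfrsf9 was at 289 and 354 RPKM at 0 h, 314 and 207 RPKM at 6 h, 249 and 284 RPKM at 24 h, and 87.9 and 48.1 RPKM at 72 h. The 6 h libraries overlapped those of 0 and 24 h, which did not overlap each other, and 72 h lay well below all of them. Tnfrsf9 fell by 1.65 from 24 to 72 h (log2, SE 0.40, adjusted p = 0.0189 by edgeR), 3.14-fold, as 1 of 3 receptors tested beside 14.8% of 3503 genes. The fall was lost with only the groups compared, and without either 24 h library or 72 h replicate 2.

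With IL-21, Tnfrsf9 was at 191 and 369.8 RPKM at 0 h, 461 and 496 RPKM at 6 h, 428 and 348 RPKM at 24 h, and 289.8 and 86.3 RPKM at 72 h. At 6 and 24 h these libraries lay above all libraries of the same time without IL-21, whereas at 0 and 72 h they overlapped. The IL-21 difference was -0.15 at 0 h (log2, SE 0.39, adjusted p = 1.00 by edgeR), 0.85 at 6 h (SE 0.39, adjusted p = 0.427), 0.44 at 24 h (SE 0.39, adjusted p = 0.711) and 1.32 at 72 h (SE 0.40, adjusted p = 0.0611). It was called at 72 h by DESeq2, with no gene filter, and without 72 h replicate 1 or 72 h IL-21 replicate 2, whereas without 72 h IL-21 replicate 1 the difference was 0.51 (adjusted p = 0.450 by edgeR). The effect at 72 h minus that at 6 h was 0.47 (SE 0.55, adjusted p = 0.774 by edgeR), and the effect in the inhibitor culture minus that at 72 h here was -0.15 (SE 0.70, adjusted p = 0.994 by edgeR).

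Ordered by mean level, Tnfrsf9 ran from 6 h with IL-21 (479 RPKM ± 24.5, SD, n = 2) and 24 h with IL-21 (388 ± 56.4) through 0 h (321 ± 46.0), 0 h with IL-21 (281 ± 126), 24 h (266 ± 24.4) and 6 h (261 ± 75.4) to 72 h with IL-21 (188 ± 144) and 72 h (68.0 ± 28.1). Only the first neighbours did not overlap; each later group overlapped the one above it.

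The IL-21 difference of Tnfrsf18 was not the same size at early and late times. At 6 h it had 122 and 89.8 RPKM without and 64.8 and 57.1 RPKM with IL-21, and at 24 h 107 and 106 RPKM without and 65.9 and 55.0 RPKM with it. At 72 h the order was the opposite, with 44.4 and 51.7 RPKM without and 143 and 67.6 RPKM with IL-21. At 0 h the levels were 92.0 and 88.8 RPKM without and 81.4 and 68.6 RPKM with IL-21 (log2 -0.18, adjusted p = 1.00 by edgeR). The groups did not overlap at 0 h or at the later times, and with 2 libraries per group such gaps often arise by chance. The differences were -0.83 at 6 h (SE 0.27, adjusted p = 0.197 by edgeR), -0.92 at 24 h (SE 0.27, adjusted p = 0.130) and 0.98 at 72 h (SE 0.27, adjusted p = 0.0444), the last at 1.97-fold and so just under the 2-fold limit. The effect at 72 h was higher than that at 6 h by 1.81 (log2, SE 0.38, adjusted p = 0.0214 by edgeR), 1 of 3 receptors called beside 4.17% of genes. That interaction was lost under edgeR's own count filter, with no filter, with only the groups compared, and without 6 h replicate 1 or either 6 h IL-21 library. The IL-21 effect in the inhibitor culture, where Tnfrsf18 was lower with IL-21, minus that at 72 h was -1.57 (SE 0.53, adjusted p = 0.545 by edgeR).

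Cd27 in the time course had its highest group mean at 0 h, with 22.9 and 23.7 RPKM, and had 9.67 and 5.63 RPKM at 72 h without IL-21. With IL-21 at 72 h its 2 libraries were at 31.5 and 5.54 RPKM and spanned those without it. The IL-21 differences ran from -0.40 at 0 h to 1.09 at 72 h (SE 0.57, adjusted p = 0.269 by edgeR). The effect in the inhibitor culture, -1.33, minus that at 72 h was -2.35 (SE 1.10, adjusted p = 0.759 by edgeR). For IL-21 against none, 0 of 3 receptors were called at 0 h (0% of genes, 110 at an unadjusted p below 0.05, 0 by DESeq2 and limma), at 6 h (1.97%), at 24 h (1.66%) and at 72 h (8.08%). Without IL-21, 0 of 3 were called from 0 to 6 h (0% of genes, 106 at an unadjusted p below 0.05, 8 by DESeq2) and from 6 to 24 h (0.0856%). The inhibitor culture minus the time course at 72 h called 0 of 4 receptors (0% of genes, 306 at an unadjusted p below 0.05, 115 by DESeq2, 1 by limma).

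The 72 h libraries also stood apart in genes of division. Mki67, Top2a, Ccnb1 and Cdk1 summed to 106 to 120 RPKM at 24 h, 0.521 to 3.43 RPKM at 72 h and 10.4 to 24.4 RPKM at 72 h with IL-21. Cd3e was at or below 0.0561 RPKM and Foxp3 at or below 0.0176 RPKM in the time course. The T cell list, however, summed to 367 to 743 RPKM at 72 h and 662 to 734 RPKM at 72 h with IL-21, and the macrophage list to 0 to 9.19 RPKM and 27.9 to 67.9 RPKM. At 6 h the sum of the 4 trNK markers was 1253 to 1315 RPKM without IL-21 and 577 to 616.5 RPKM with it. The part of these differences and of the dividing cells in the levels of Tnfrsf9 and Tnfrsf18 was not tested.

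Of the 6 ligand genes, those of OX40 and 4-1BB were the ones the trNK libraries carried to a testable level in every experiment. Tnfsf4, the OX40 ligand, was at 3.55 and 4.93 RPKM in virgin cells, 9.08 and 9.30 RPKM at gd6.5, and 53.8 and 49.4 RPKM at gd8.5. Each day lay above the one before. It rose by 3.54 from virgin to gd8.5 (log2, SE 0.28, adjusted p = 0.0131 by edgeR), having passed the filter on low values through gd8.5 alone. It was called there too under edgeR's own count filter, with no filter and by DESeq2, but not with a replicate block. In the inhibitor culture it had 42.7 and 43.0 RPKM without IL-21, 92.7 and 82.5 RPKM with it and 239 and 156 RPKM with Stattic added. The groups did not overlap, and the cells with both agents rose against untreated cells by 2.49 (log2, SE 0.34, adjusted p = 0.0102 by edgeR).

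In the time course Tnfsf4 was at 8.90 and 6.81 RPKM at 24 h without IL-21, had no read in either 72 h library, and was at 30.9 and 5.00 RPKM at 72 h with IL-21. Set against a floor of 3 reads per library, the 72 h libraries with IL-21 were 374-fold above it by their mean and 104-fold by the lower of them (adjusted p = 0.000122 by edgeR for the difference between the groups). Those at 24 h were 163.5-fold above the same floor (adjusted p = 0.000168 by edgeR for 72 h against 24 h). The floor covers sampling of reads only, and the 72 h groups differed most between their 2 libraries (chi-square per degree of freedom 394 without and 379 with IL-21). Tnfsf9, the 4-1BB ligand, had 15.8 and 6.00 RPKM in the untreated cells of the inhibitor culture, 14.9 and 18.3 RPKM with IL-21 and 45.3 and 72.0 RPKM with Stattic. The Stattic libraries were above all others, 2.72 higher than untreated on the log2 scale (SE 0.57, adjusted p = 0.0372 by edgeR). Tnfsf18, the GITR ligand, had no read in any library, while Cd70 (0 to 7.77 RPKM), Tnf (0 to 17.3 RPKM) and Lta (0 to 15.6 RPKM) were low.

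**Figure D3:**
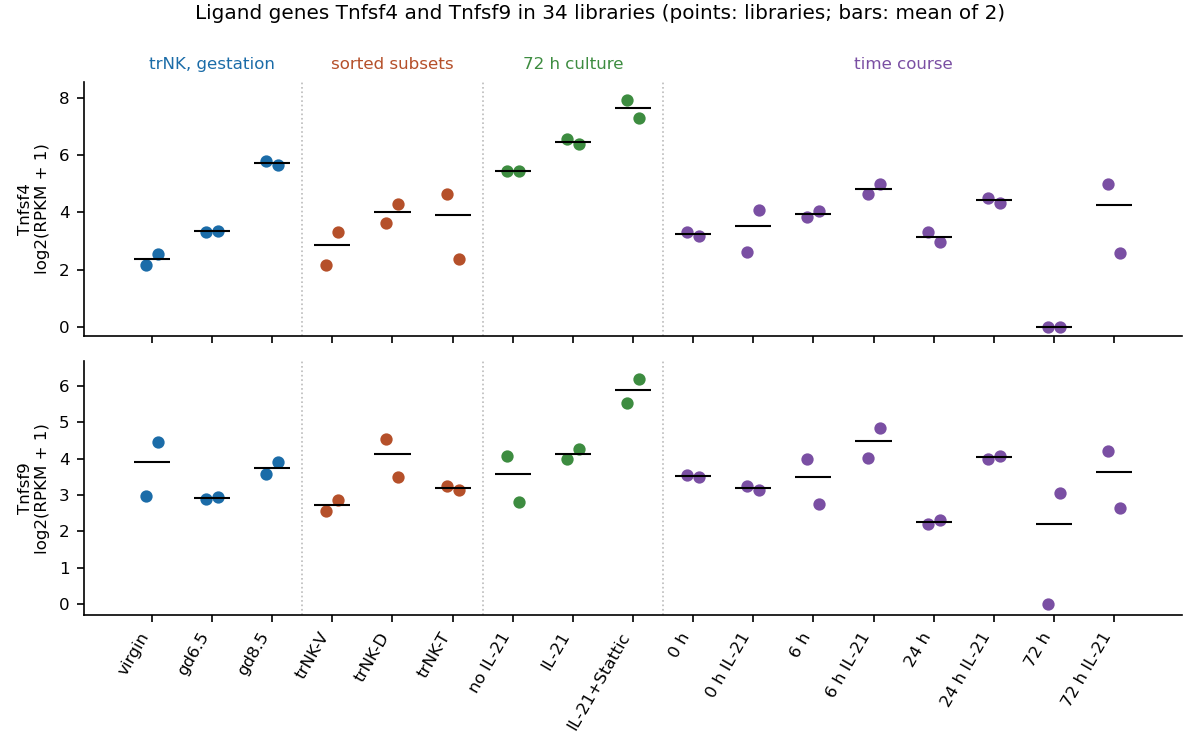
Levels of the ligand genes Tnfsf4 and Tnfsf9 as log2(RPKM + 1) in the 17 bulk groups. Points are libraries and bars their mean RPKM; Tnfsf4 is highest with IL-21 and Stattic, at 239 and 156 RPKM, and at 0 at 72 h without IL-21.

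Other genes of the family differed with Stattic. Tnfrsf23 and Tnfrsf26, which lie among the mouse decoy receptors of the ligand TRAIL, rose against IL-21 alone by 5.22 (SE 0.69, adjusted p = 0.0136 by edgeR) and 3.10 (SE 0.41, adjusted p = 0.0138 by edgeR), with 3 of 23 other receptors tested and 2.96% of genes called. Against untreated cells Tnfrsf23 rose by 4.04 (adjusted p = 0.0155 by edgeR), where 4.74% of genes were called. Tnfrsf23 passed the filter on low values through the Stattic libraries alone, and its calls were lost under edgeR's own count filter. Of 10 signalling genes tested, Siva1 fell by 2.24 against IL-21 (adjusted p = 0.0430 by edgeR) and by 2.52 against none (adjusted p = 0.0197 by edgeR), and Cflar, an inhibitor of caspase activation at death receptors, rose by 1.72 against none (SE 0.35, adjusted p = 0.0343 by edgeR). Cflar too passed that filter through the Stattic libraries alone, and its call was lost under edgeR's own count filter. Over all genes that count filter gave 1 call against IL-21 in place of 123, so Tnfrsf26 and Siva1 cannot both have been called there. Against none it gave 21 in place of 197. A replicate block gave 8 calls against IL-21 and 55 against none. No signalling gene was called by edgeR in gestation (0 of 14 tested, beside 6.17%, 0.422% and 0% of genes in its 3 comparisons), with IL-21 in the inhibitor culture (0 of 10, beside 0.289%) or in the time course (0 of 4, beside 0% to 14.8%). The 3 comparisons of the inhibitor culture share libraries pair by pair.

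The genes whose levels went most with each receptor were sought over the 34 libraries, as Pearson's r of log2(RPKM + 1) after the mean of each experiment had been taken out, among 2662 genes. Nearest to Tnfrsf9 were Tmem97 (r = 0.914), Cinp (0.914), Cisd1 (0.906), Ssr2 (0.905) and Pnp (0.890). Nearest to Tnfrsf18 were Lgals9 (0.859), Fam173a (0.843) and Fis1 (0.839), and to Cd27 Skap1 (0.863), Gimap4 (0.853) and Cirbp (0.836). For Tnfrsf1b, itself too low to be in the set, they were Eomes (0.737), Lax1 (0.689) and Rsrp1 (0.671), and for Tnfrsf4, at a few reads in most libraries, Bcl2a1d (0.471), Chchd5 (0.464) and Tigd2 (0.463). Between the receptors, Tnfrsf18 and Cd27 went together most (r = 0.711), whereas Tnfrsf9 had r = -0.188 with Cd27, -0.0901 with Tnfrsf18 and -0.508 with Tnfrsf1b. Of the 34 libraries, 6 were the sorted subsets, in which the 4-1BB gate set Tnfrsf9. Over the other 28, an alternative added after seeing the data, the sign turned for Cd27 (r = 0.217) and Tnfrsf18 (0.200), while Tnfrsf1b stayed at -0.477 and the 5 genes nearest to Tnfrsf9 at 0.855 to 0.897. These libraries share experiments and treatments, and the values are descriptions.

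The single-cell table joined CD45+NK1.1+NKp46+ cells of virgin and gd8.5 uterus, with no tag per cell used here to tell the days apart, so it was 1 sample with no test. Of its 15175 cells, 8909 had 200 to 2500 genes and under 10% mitochondrial reads, with a median of 2576 unique molecular identifiers (UMIs) and 1303 genes. The receptors and ligands were left out of the clustering. Of 19 clusters, 5 with 3486 cells were trNK-like, carrying the fixed markers Itga1, Ncr1, Klrb1c and Eomes each at least 2-fold above B-like cells, a limit set after the clusters were seen, and 7 with 2363 cells stayed unnamed. No doublet was called by the caller used, which had thus not worked, and doublets were not removed. Levels are given as CPM, the UMIs of a gene scaled to the total of the cells, with the 95% exact Poisson interval, which covers counting error only.

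Tnfrsf9 was at 1114 CPM (1096 to 1133) in trNK-like cells, 287 (263 to 313) in conventional NK-like (cNK-like) cells, 186 in T-like and 174 (143 to 210) in B-like cells. The study's methods state the limit of 200 to 2500 as UMIs, and with that reading trNK-like Tnfrsf9 was 629 and Cd27 54.2, against 30.8 for Cd27 with genes. With no upper limit they were 1604 and 9.31, and with coarser clusters 725 and 39.8. B-like cells, which should carry little 4-1BB RNA, stood in for free RNA, which was not itself measured. Macrophage-like and T-like cells sat at the same level. After every cell was thinned to 1000 UMIs, 46.8% of trNK-like cells had a Tnfrsf9 UMI (70.0% unthinned; median 3213 UMIs), 19.5% of cNK-like (median 1721) and 12.9% of B-like cells (22% unthinned; median 1826), with 602 shallower cells left out. Tnfrsf9 in cNK-like cells was thus above the B-like level by less than 2-fold.

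Among the trNK-like clusters, the highest and the lowest in Tnfrsf9 were the lowest and the highest in Cd27, while the 3 between had no such order. Against all other cells, clusters 4, 9 and 16 held none of the 4 trNK markers at 2-fold, while cluster 16 held Cxcr6 and Tnfsf10 of the list for type 1 innate lymphoid cells (ILC1), and cluster 9 Tnfsf10 with Trdc and Itgax, from lists of other cells. With coarser clusters only 2 were trNK-like, at 709 and 773 CPM of Tnfrsf9 and, in the same order, 47.5 and 17.1 of Cd27. With no upper limit there were also 2, at 635 and 1628 of Tnfrsf9. Cluster 2, led by the granzyme genes Gzmf, Gzmc and Gzmd, had the most Tnfrsf9 at 2226 (2176 to 2276) and the least Cd27 at 4.11 (2.25 to 6.89), near the B-like 1.61 (0.0408 to 8.99). Cluster 8, led by Ier5l, Crtam and Xcl1, had 782 (755 to 810) of Tnfrsf9 and 45.7 (39.3 to 52.8) of Cd27. Cluster 9 was led by Gm25313, Gm25099 and Gm24265, with Cox6a2 after them. It had the least Tnfrsf9 of the 5 at 474 (446 to 502) and the most Cd27 at 55.2 (46.1 to 65.6). Its cells held a median of 2160 UMIs, against 5161 in cluster 2.
The dividing cluster 4 (Pclaf, Rrm2) had 753 of Tnfrsf9 and 17.7 of Cd27, and cluster 16, led by interferon-response genes such as Cxcl10 and Ifit1, 663 and 46.8. T-like cells held the highest Cd27 of all clusters, at 190 (155 to 231).

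**Figure D4:**
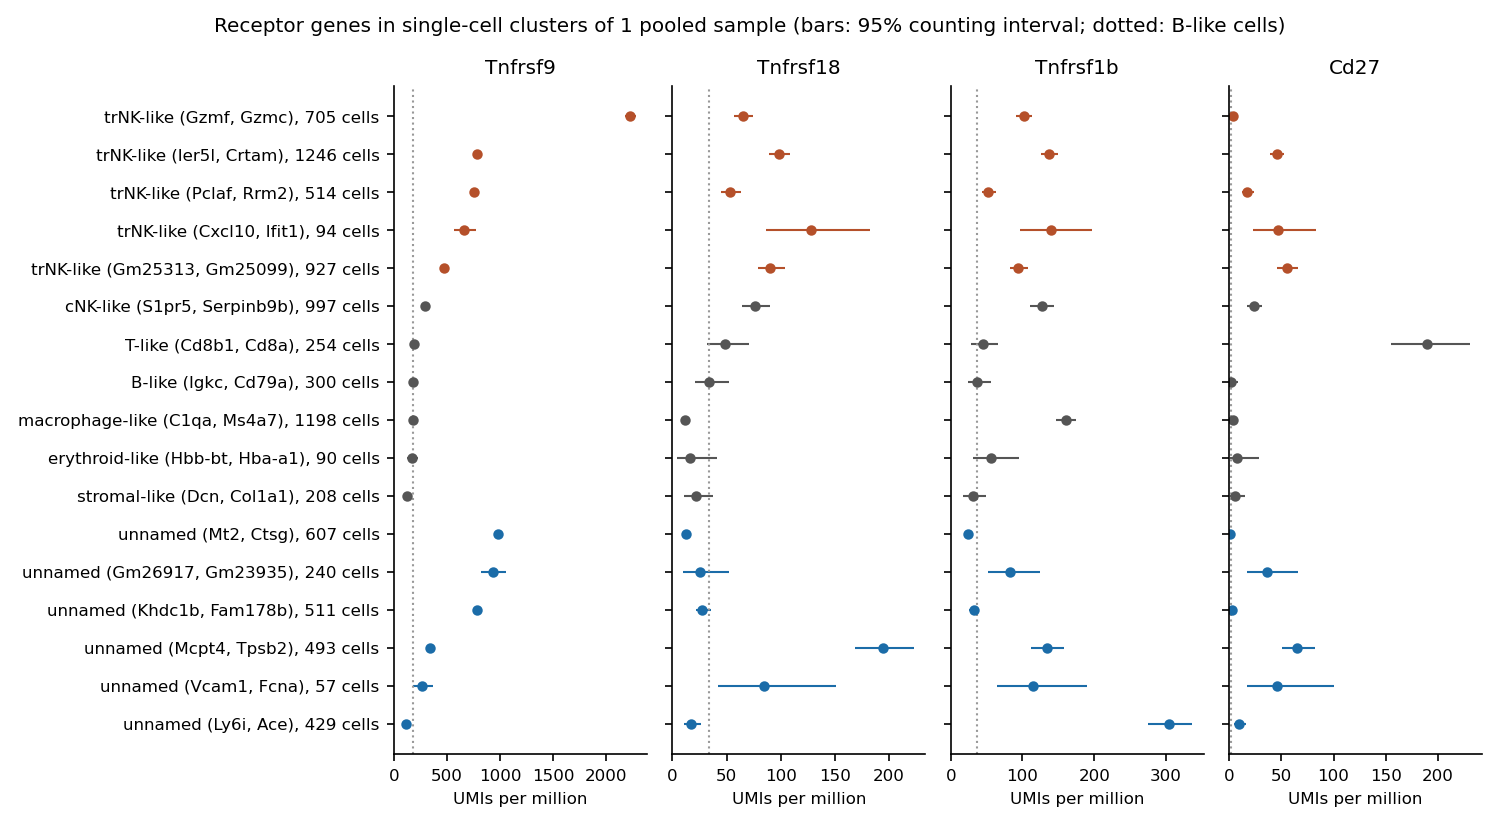
Levels in CPM of Tnfrsf9, Tnfrsf18, Tnfrsf1b and Cd27 in the 17 single-cell clusters of at least 50 cells, with 95% counting intervals. Orange marks trNK-like, grey other named and blue unnamed clusters, and the dotted line is the B-like level. Cluster 2 has the highest Tnfrsf9, 2226, and one of the lowest levels of Cd27, 4.11.

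A like order of Cd27 was seen when the cells of all trNK-like clusters, virgin and gd8.5 together, were binned by their Tnfrsf9 UMIs. Among thinned trNK-like cells, Cd27 was at 58.7 CPM (48.0 to 71.2) in the 1771 cells with no Tnfrsf9 UMI, 32.0 (20.9 to 46.9) in those with 1, 22.7 (11.7 to 39.6) in the 529 with 2 or 3, and had no UMI in the 214 with 4 or more, which allows up to 17.2. Tnfrsf18 did not follow that order, with 86.4, 70.2, 94.5 and 70.1 CPM over the same cells and intervals that all overlapped. Tnfrsf1b was at 97.7 (83.7 to 113) in cells with none and 150 (102 to 211) in those with 4 or more, which overlap as well. These bins are ranges of 1 count in cells of several clusters, not cell types. After thinning, 82.1% of cluster 2 cells had a Tnfrsf9 UMI and 0.295% a Cd27 UMI, against 29.6% and 6.69% in cluster 9. The bins thus hold the contrast between clusters given above and are not separate from it. No bins were made within a cluster or a day, so an order from cell to cell was not tested.

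Tnfrsf18 was at 79.8 (74.9 to 84.9) in trNK-like cells and 76.0 in cNK-like cells, above the B-like 33.9 (20.97 to 51.8), and was highest at 194 (168 to 223) in unnamed cluster 11, led by mast cell genes and by Cxcr6 and Tcrg-C4. Tnfrsf1b was shared more widely, with 104 (97.9 to 109) in trNK-like, 127 in cNK-like and 160 (147 to 175) in macrophage-like cells, and its highest level among clusters of at least 50 cells was 305 (275 to 336) in unnamed cluster 6 (Ly6i, Ace). Tnfrsf4 was rare, at 2.43 in trNK-like cells, no higher than the 3.23 of B-like cells. That B-like value rests on few UMIs, with 0.667% of B-like cells holding one before thinning. Unnamed clusters 1 (Mt2, Ctsg) and 3 (Khdc1b) had Tnfrsf9 at 978 and 783, the latter close to cluster 8, with Cd27 at 0.903 and 2.94.

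The ligands of 4-1BB and OX40 were highest in different clusters. Tnfsf9 was at 239 (213 to 267) in unnamed cluster 6, which held macrophage and dendritic markers, at 64.5 (56.2 to 73.7) in macrophage-like cells and at 11.4 to 25.5 in the trNK-like clusters, beside 8.06 (2.62 to 18.8) in B-like cells. Tnfsf4 was highest, among clusters of at least 50 cells, in trNK-like cluster 2, at 41.4 (34.8 to 48.8), followed by unnamed cluster 3 at 26.0 and cluster 8 at 13.7, with no UMI in B-like cells (up to 5.95). Among clusters of at least 50 cells, cluster 2 was thus the highest in both Tnfrsf9 and Tnfsf4.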

How the data were processed

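Bulk values are read counts per gene that the authors deposited, made per the study's methods with HISAT2 on mm10 and RSEM, while the submitters' notes name HISAT2 2.1.0 and featureCounts. Libraries held 11862089 to 66468883 counts. RPKM was computed over the 54353 shared genes (99.8966% of counts in the lowest library). Each experiment was fitted once with edgeR 4.0.16 (R 4.3.3; TMM, quasi-likelihood test, Benjamini-Hochberg) on genes over 10 RPKM in both libraries of a group. A gene was called, and is said to have risen or fallen, at adjusted p below 0.05 and over 2-fold. Pairs of libraries differed by more than sampling noise. The fit was also run on simulated data that gave every gene of an experiment the same spread, so that run does not measure how reliable the calls here are. Alternatives were DESeq2 1.42.0, limma 3.58.1, other filters and scaling, the groups compared alone, a replicate block and each library left out.

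Single-cell UMI counts deposited by the authors came in files split by gene, joined by cell and clustered with scanpy 1.11.5 (Leiden). Sequences are from RefSeq for GRCm38.p6. The receptors, lists and motifs were chosen with earlier results of these data known. Named were the 5 receptors, the ligands, the surface genes, called signalling and other receptor genes, the nearest genes by r, and leading genes of clusters. Chromatin libraries were not analysed here.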

Additional observations from a re-analysis of the deposited data

Results flagged for a closer look

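The response of Tnfrsf18 to IL-21 in the time course stood out because the size of the IL-21 difference was not the same at 6 and 72 h by a test of the difference itself, an interaction term in the edgeR fit. The IL-21 difference was -0.83 at 6 h (adjusted p = 0.197) and 0.98 at 72 h (1.97-fold) on the log2 scale, neither of them called, and the later effect exceeded the earlier by 1.81 (SE 0.38, adjusted p = 0.0214 by edgeR). The interaction was lost under edgeR's own count filter, with no filter, with only the groups compared, and without 6 h replicate 1 or either 6 h IL-21 library. Both 72 h libraries with IL-21, at 143 and 67.6 RPKM, were above those without it, at 44.4 and 51.7 RPKM, and at 6 h the order was the opposite. In the inhibitor culture, also kept for 3 days, Tnfrsf18 was lower with IL-21, at 92.7 and 68.2 RPKM against 158 and 126 RPKM (log2 -0.63), and that effect minus the one at 72 h was -1.57 (SE 0.53, adjusted p = 0.545 by edgeR). The dividing list summed to 0.521 to 3.43 RPKM at 72 h without IL-21 and 10.4 to 24.4 RPKM with it, and its part was not tested.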

How the results depend on the processing

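Over 1035 alternatives to the log2 changes of the receptors, 1012 kept the direction. Many of these left out a library of a group outside the comparison, which can hardly turn it. Of 319 alternatives to the numbers called and to the single-cell level of Tnfrsf9, 260 were rated as unchanged. The number of receptors called was 0 at gd6.5 against virgin, instead of 1, under edgeR's own count filter, which keeps more genes, with only the groups compared and with a replicate block. It was 1 at gd8.5 against virgin with no gene filter, and 2 at gd8.5 against gd6.5 with DESeq2, with no filter and with only the groups compared, instead of 0. For trNK-D against trNK-V it was 1 with DESeq2, with no filter and with the block, instead of 0. For trNK-T against trNK-D it was 2 with DESeq2 and with no filter, and 0 under edgeR's filter, limma and only the groups compared, instead of 1. For Stattic against IL-21 it was 2 with DESeq2 and 1 with limma and with no filter, and against none 0 under edgeR's filter and the block. IL-21 at 72 h gave 1 with DESeq2 and 2 with no filter, of which 1 was Tnfrsf4 against 0 reads (adjusted p = 0.0472 by edgeR). With no filter the 72 h minus 6 h effect called Tnfrsf4 (adjusted p = 0.0297 by edgeR) and not Tnfrsf18. The 72 h minus 6 h effect and the change from 24 to 72 h gave 0 with only the groups compared (the former also under edgeR's filter). Over all genes, edgeR's own filter called 5 at gd6.5 against virgin in place of 278, and DESeq2 462, and 968 in place of 991 in trNK-T against trNK-V. The causes were not tested.

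Leaving out single libraries gave 0 to 3 calls for gd6.5 and gd8.5 against virgin and for IL-21 at 72 h, 0 to 2 for gd8.5 against gd6.5, 72 h against 24 h and the 72 h minus 6 h effect, 1 to 2 for trNK-T against trNK-V, 0 for trNK-T against trNK-D, and 0 to 1 for Stattic against none.

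Directions turned for 17 uncalled changes on leaving out a library (log2, lowest to highest). They were Cd27 at gd6.5 against virgin (-1.73 to 0.72), gd8.5 against virgin (-2.42 to 0.025), IL-21 at 24 h (-0.28 to 0.089) and at 72 h (-0.31 to 1.71). They were Tnfrsf9 at gd8.5 against virgin (-0.091 to 2.56) and against gd6.5 (-0.60 to 0.27), IL-21 at 0 h (-0.59 to 0.17), 24 h against 6 h (-0.030 to 0.44), 72 h minus 6 h (-0.35 to 0.91) and the inhibitor culture minus the time course (-0.58 to 0.57). Tnfrsf18 turned with IL-21 at 0 h (-0.44 to 0.012) and at 6 h against 0 h (-0.020 to 0.30). Tnfrsf1b turned in trNK-T against trNK-D (-0.13 to 0.14, and -0.022 with only the groups compared), with IL-21 in the inhibitor culture (-1.03 to 0.16), Stattic against IL-21 (-0.012 to 1.59) and none (-0.44 to 1.19), and between cultures (-0.37 to 1.81).

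Replicate numbers share no stated source, and the correlation of same-numbered deviations ran from -0.295 to 0.104 in gestation, 0.0104 to 0.399 in the subsets, -0.509 to 0.598 in the inhibitor culture and -0.392 to 0.477 in the time course, with 2 numbers only, so the libraries were not taken as paired. In the subsets all 3 were above 0, and the block called 151 genes in trNK-T against trNK-D in place of 82. Tnfrsf9 in trNK-like cells was 629 CPM with 200 to 2500 UMIs in place of genes, 1604 with no upper limit and 725 with coarser clusters, whose trNK-like cells differ.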
